A study of Caenorhabditis elegans with 27 samples.

Results

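Genes that make or load small-molecule neurotransmitters were followed through 9 RNAi feeding groups of Caenorhabditis elegans. They were selected by symbol from the 46738 genes of the count table: tdc-1, tbh-1, cat-2, bas-1, tph-1, cha-1, unc-17, unc-25 and eat-4. Each of the 9 symbols matched 1 gene, and all 9 passed the filter on low counts that left 16435 genes for testing.

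The libraries were made from poly(A) RNA of whole N2 worms that carried an hsp-6::GFP reporter of mitochondrial stress. Worms were fed HT115 Escherichia coli expressing double-stranded RNA from the egg stage at 20 °C, and were harvested 2 days later at the L4 or young adult stage. The groups were cbp-1 alone, atfs-1 alone, cco-1 mixed with cbp-1, cco-1 mixed with atfs-1, mrps-5 mixed with cbp-1, mrps-5 mixed with atfs-1, cco-1 diluted with empty vector, mrps-5 diluted with empty vector, and the empty vector (ev), with 3 libraries each. Every mixture held 50% of its mitochondrial clone. The cco-1 and mrps-5 groups held another 50% of empty vector, both cbp-1 mixtures contained 25% cbp-1 clone and 25% empty vector, and both atfs-1 mixtures contained 50% atfs-1 clone. The labels give no share for cbp-1 or atfs-1 alone. The product of cco-1 is a subunit of cytochrome c oxidase, that of mrps-5 belongs to the mitochondrial ribosome, CBP-1 is the worm relative of the histone acetyltransferases CBP and p300, and ATFS-1 is a transcription factor of the mitochondrial unfolded protein response. The comparisons ask how mitochondrial RNAi changes these genes and how far the change depends on cbp-1 or atfs-1.

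In C. elegans a neuron's transmitter is set by a small group of enzymes and vesicle transporters. Tyrosine is decarboxylated to tyramine by TDC-1, and tyramine is hydroxylated to octopamine, the invertebrate counterpart of noradrenaline, by TBH-1. Dopamine is made by the tyrosine hydroxylase CAT-2 and the aromatic amino acid decarboxylase BAS-1. Serotonin is made by the tryptophan hydroxylase TPH-1 and by BAS-1, which dopaminergic and serotonergic neurons share. CHA-1 is choline acetyltransferase, UNC-17 loads acetylcholine into vesicles, UNC-25 is the glutamic acid decarboxylase that makes GABA, and EAT-4 loads glutamate into vesicles. tdc-1 and tbh-1 are known from a few neurons and also from the sheath cells of the gonad, which are not neurons.

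On the WBcel235 assembly tbh-1 lies on chromosome X at 15500256 to 15504895 on the reverse strand. Chromosome II holds tdc-1 at 8270597 to 8273615, cat-2 at 257819 to 261074 and tph-1 at 7549335 to 7551983. Chromosome III holds bas-1 at 5612274 to 5614660, unc-25 at 12942651 to 12949883 and eat-4 at 9136887 to 9141827. These 6 genes lie on the forward strand. cha-1 (3613931 to 3624697) and unc-17 (3618259 to 3624699) are nested on the reverse strand of chromosome IV, and their exons share 66 bases. Whether strand was used in counting is not stated in the labels, so reads from overlapping genes on opposite strands may not be told apart. The largest such overlap is 372 exonic bases of tbh-1 (17.05% of its exonic length) with H13N06.7, which had 49 counts in all 27 libraries together. tbh-1 also shares 26 exonic bases with suox-1, which had 24153 counts in the 27 libraries together. The part of suox-1 reads in the low tbh-1 counts with the cbp-1 clone was not tested. tdc-1 shares 73 exonic bases with gei-14, which had 77408 counts in the 27 libraries together. eat-4 shares 79 with ZK512.2 (65818 counts) and 40 with ZK512.7 (50897 counts).

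Each library held between 20672073 and 30938572 gene counts, with a median of 27527028. The libraries formed a pair of sets that the feeding groups do not explain. The 3 ev, 3 cbp-1 and the first atfs-1 library scored 0.34 to 0.45 on an axis of 458 genes that separates the first atfs-1 library from the other 2, and the remaining 20 libraries scored -0.25 to -0.08. The axis took only genes with a mean of at least 5 CPM and a difference over 0.5 on the log2 scale between that library and the other 2. Of the 9 genes only tdc-1, tbh-1, bas-1 and unc-25 reached that level, and they differed by -0.06, -0.08, 0.09 and 0.02. The other 5 were too low to be on the axis, with differences of 0.47 for unc-17, -0.31 for eat-4, -0.19 for cat-2, 0.12 for cha-1 and 0.08 for tph-1. Comparisons of cbp-1 with ev, of each mixture with its mitochondrial clone, and of mrps-5 with cco-1 stay within 1 set. Comparisons of cco-1, mrps-5 or atfs-1 with ev cross the sets and are given with a library-set term as well, which rests on the atfs-1 group alone. The read count of cbp-1 itself was lower in cbp-1 worms than in ev worms by 0.37 ± 0.07 (log2 ± standard error), and lower by 0.24 ± 0.06 and 0.22 ± 0.07 in the cco-1 and mrps-5 mixtures with cbp-1 than in cco-1 and mrps-5 worms. Read counts of cco-1 and mrps-5 were also lower in cbp-1 worms than in ev worms, by 0.45 ± 0.12 and 0.16 ± 0.04. The cco-1 count was lower than in ev worms by 0.83 ± 0.12 in cco-1 worms, and by 0.16 with the library-set term (adjusted p = 0.149). It was lower by 0.49 ± 0.12 in mrps-5 worms, and higher by 0.18 with the term (adjusted p = 0.141). The mrps-5 count was lower by 0.33 ± 0.04 in mrps-5 worms, and by 0.32 with the term (adjusted p = 8.95e-05). The atfs-1 read count was higher, by 0.22 ± 0.04, in the libraries labelled atfs-1 than in ev libraries (adjusted p = 0.000298), a call that was lost with the library-set term (0.14, adjusted p = 0.318), so the counts do not check that label. Reads from a fed clone are not told apart from worm transcripts.

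Per kilobase of exon, tdc-1 had the highest mean level of the 9 genes over all 27 libraries, at 92.7 CPM per kilobase (CPM are counts scaled to library size with TMM factors). tbh-1 followed at 54.2, bas-1 at 17.8 and unc-25 at 11.7 CPM per kilobase. The cholinergic pair and the glutamate transporter gene were lower, with unc-17 at 1.82, cha-1 at 1.36 and eat-4 at 1.32 CPM per kilobase. cat-2 at 0.385 and tph-1 at 0.295 CPM per kilobase were the lowest. tph-1 rested on 7 to 22 counts per library and cat-2 on 12 to 42, so only large changes of these genes could be detected. The ratio of the highest to the lowest library was 121.7 for tbh-1, 3.10 for tph-1, 2.78 for cat-2, 2.45 for bas-1 and between 1.38 and 1.99 for unc-25, cha-1, unc-17 and eat-4. For tdc-1 it was 1.14.

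**Figure D1:**
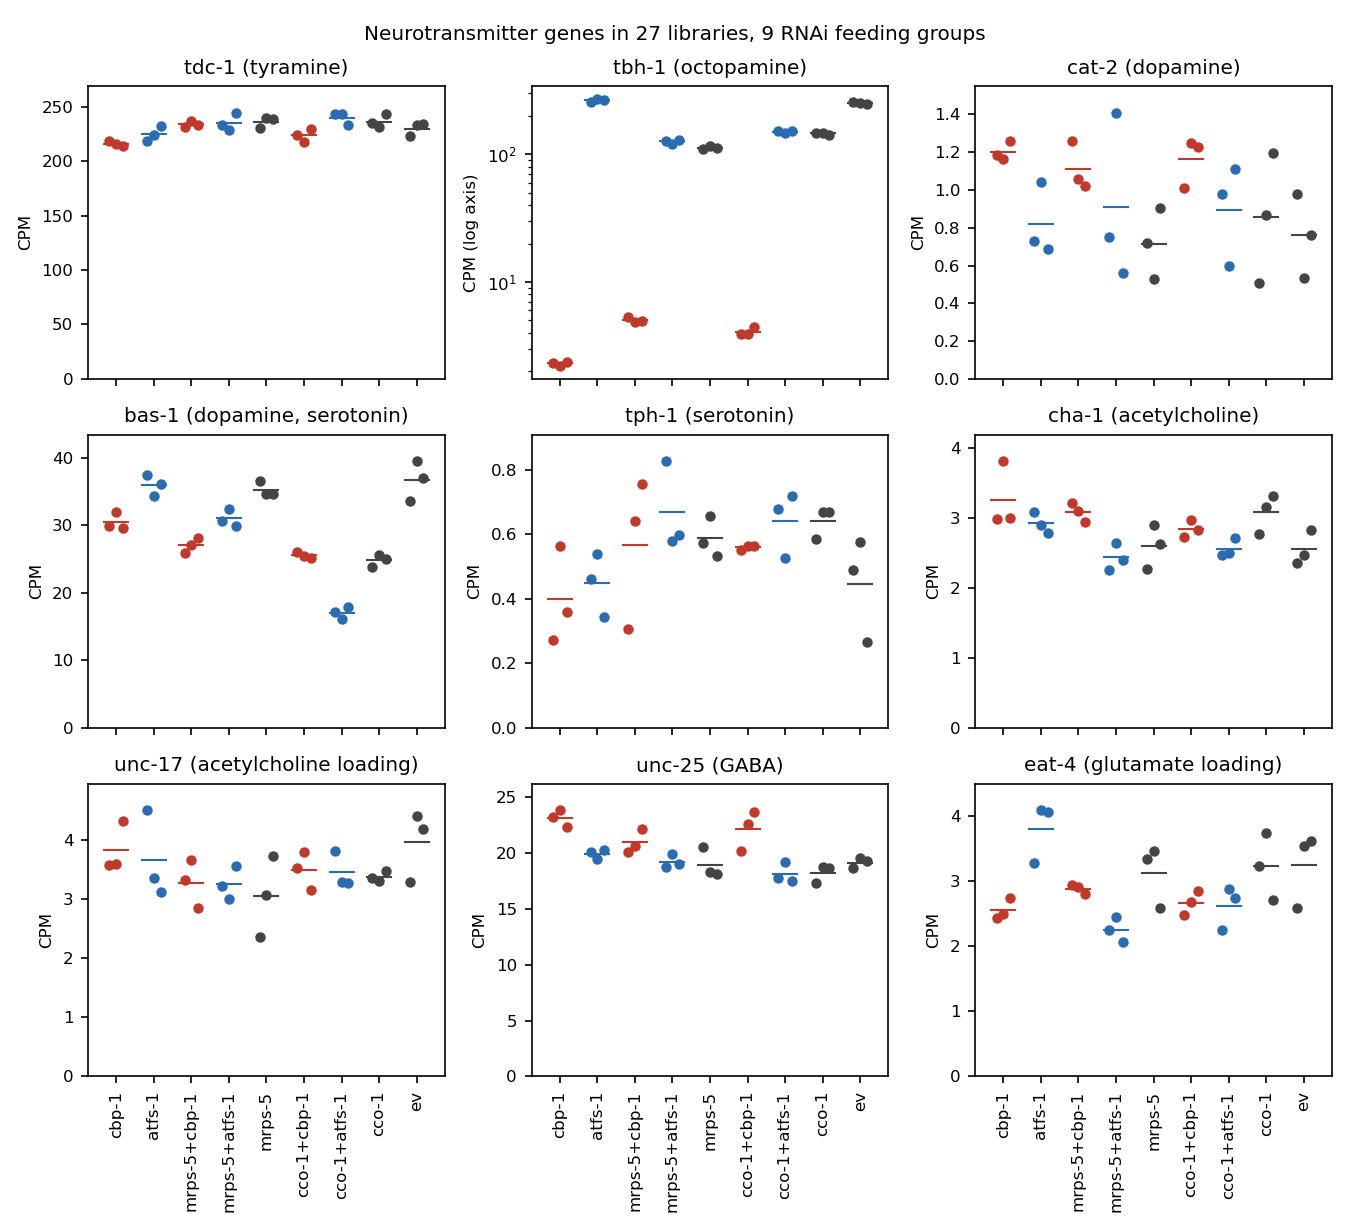
Level of each gene in CPM in every library (points) with the mean of 3 libraries (bars), for the 9 feeding groups on the horizontal axis; groups with the cbp-1 clone are red, groups with the atfs-1 clone blue and the others grey, and the axis of tbh-1 is logarithmic. The 9 libraries with the cbp-1 clone hold 2.22 to 5.34 CPM of tbh-1 and the 18 without it 110.2 to 270 CPM, while tdc-1 stays between 214 and 245 CPM.

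With the cbp-1 clone the octopamine gene tbh-1 was nearly lost, whereas tdc-1, the enzyme one step before it, was almost level. tbh-1 had 2.34, 2.22 and 2.38 CPM (77, 63 and 66 counts) in cbp-1 worms, against 256, 253 and 248 CPM (7317, 6151 and 6513 counts) in ev worms. In the mixture with cco-1 it had 3.92, 3.89 and 4.41 CPM, against 147.5, 148 and 141.9 CPM in cco-1 worms. In the mixture with mrps-5 it had 5.34, 4.86 and 4.94 CPM, against 110.2, 115 and 112 CPM in mrps-5 worms. No library with the cbp-1 clone came near any library without it.

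The fall of tbh-1 was 6.77 ± 0.06 on the log2 scale in cbp-1 worms (109-fold lower, edgeR quasi-likelihood test with Benjamini-Hochberg adjustment over all genes, adjusted p = 1.04e-46, n = 3 each). It was 5.16 ± 0.05 in the cco-1 mixture (35.8-fold, adjusted p = 1.24e-43) and 4.48 ± 0.05 in the mrps-5 mixture (22.3-fold, adjusted p = 3.47e-41). The remaining level was thus 0.915% of that in ev worms, 2.79% of that in cco-1 worms and 4.49% of that in mrps-5 worms. Among the 9615 genes with a mean of at least 5 CPM, the log2 change of tbh-1 ranked 3 from the lowest in cbp-1 worms, 3 in the cco-1 mixture and 9 in the mrps-5 mixture. These are whole-worm libraries, in which fewer cells of a type and less RNA per cell cannot be told apart. The labels do not say whether the 3 libraries of a group came from separate cultures, and p-values measure only the spread between them.

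The size of the tbh-1 difference depended on the partner clone. In the interaction test, the log2 difference made by cbp-1 was smaller by 1.61 ± 0.10 with cco-1 than without it (adjusted p = 1.59e-16) and smaller by 2.29 ± 0.10 with mrps-5 than without it (adjusted p = 3.05e-21). For these comparisons, a partner clone and a different share of the cbp-1 clone cannot be told apart, because the labels give no share for cbp-1 alone. Between the mixtures, which hold the same 25% of the cbp-1 clone, the difference was smaller by 0.69 ± 0.09 with mrps-5 than with cco-1 (adjusted p = 3.6e-07).

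tdc-1 had 218, 216 and 214 CPM in cbp-1 worms, against 223, 233 and 234 CPM in ev worms. Its fall was 0.09 ± 0.03 on the log2 scale (adjusted p = 0.0255), and leaving out ev replicate 2 or 3 or any of the cbp-1 libraries raised the adjusted p to between 0.0525 and 0.0973. In the mixtures it differed by -0.08 ± 0.03 with cco-1 (adjusted p = 0.0542) and by -0.01 ± 0.04 with mrps-5 (adjusted p = 0.801). Per kilobase, tbh-1 stood at 1.22% ± 0.047 of the tdc-1 level in cbp-1 worms (SD, n = 3), 2.08% ± 0.10 in the cco-1 mixture and 2.46% ± 0.15 in the mrps-5 mixture. Without the cbp-1 clone it was 134% ± 2.9 in atfs-1 worms, 70.4% ± 3.4 in cco-1 worms, 54.3% ± 0.68 in mrps-5 worms and 125% ± 5.1 in ev worms. The transcripts of the 2 successive enzymes of octopamine synthesis were of similar level in ev worms, and tbh-1 was a few percent of tdc-1 or less wherever the cbp-1 clone was fed.

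Genes of the gonadal sheath, where tbh-1 and tdc-1 are also known to be expressed, moved with tbh-1 in part. lim-7, a LIM homeodomain gene used as a sheath marker, fell by 1.12 ± 0.11 in cbp-1 worms, by 0.92 ± 0.11 in the cco-1 mixture and by 0.69 ± 0.12 in the mrps-5 mixture. The POU homeodomain gene ceh-18 fell by 0.71 ± 0.07, 0.63 ± 0.07 and 0.82 ± 0.07 in the same 3 comparisons. The innexin gene inx-8 fell by 1.78 ± 0.04, 1.29 ± 0.04 and 0.77 ± 0.04, while its neighbouring paralog inx-9 rose by 1.64 ± 0.06, 2.18 ± 0.06 and 2.20 ± 0.06, all called. The summed level of the 4 genes was 106.7 to 112.5 CPM in cbp-1 worms against 133.6 to 135.5 CPM in ev worms. It was 139 to 144.8 CPM in the cco-1 mixture against 107.9 to 111.4 CPM in cco-1 worms, and 146.7 to 162.3 CPM in the mrps-5 mixture against 93.5 to 97.3 CPM in mrps-5 worms, with none of the 4 at 0. The higher sums in the mixtures came from inx-9 alone, since the other genes of the list fell. inx-9 averaged 100.5 CPM in the cco-1 mixture against 22.2 CPM in cco-1 worms. With mrps-5 it averaged 113.6 CPM in the mixture against 24.8 CPM in mrps-5 worms. The part of the sheath in the tbh-1 result was not tested.

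The 6 vitellogenin genes, whose yolk protein transcripts are made in the adult intestine, were measured beside them. Their summed level was 16820 to 18330 CPM in cbp-1 worms against 79200 to 82260 CPM in ev worms. It was 15870 to 16240 CPM in the cco-1 mixture against 28110 to 30920 CPM in cco-1 worms, and 31130 to 32650 CPM in the mrps-5 mixture against 65100 to 68100 CPM in mrps-5 worms. None of the 6 was at 0.

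Other lists of tissue and stage markers were counted in the same comparisons. Of all genes tested, 30.2% were called higher and 28.5% lower in cbp-1 worms. These shares were 21.9% and 25.3% in the cco-1 mixture, and 19.4% and 23.4% in the mrps-5 mixture. Of 10 intestinal genes 6 were called lower and 1 higher in cbp-1 worms, 8 lower and 1 higher in the cco-1 mixture, and 7 lower and 2 higher in the mrps-5 mixture, with median log2 changes of -0.58, -0.69 and -0.93. The peptide transporter gene pept-1 averaged 34.9 CPM in cbp-1 worms against 138 CPM in ev worms. The summed level of the intestinal genes was 6140 to 6307 CPM in cbp-1 worms against 4548 to 4888 CPM in ev worms, so it did not follow the median. Within that sum, the single gene cpr-1 averaged 4204 CPM in cbp-1 worms and 882 CPM in ev worms. The sum was 3348 to 3523 CPM in the cco-1 mixture against 4087 to 4516 CPM in cco-1 worms. In the mrps-5 mixture it was 3816 to 4092 CPM, against 3783 to 3902 CPM in mrps-5 worms. There cpr-1 averaged 2802 CPM in the mixture and 295 CPM in mrps-5 worms. Of 11 body wall muscle genes 10, 7 and 9 were called lower in the same 3 comparisons and 0 higher.

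Among germline lists, 18 of 32 sperm genes were called higher and 0 lower in cbp-1 worms, but 1 higher and 22 lower in the cco-1 mixture, and 1 higher and 8 lower in the mrps-5 mixture. Of 15 oocyte and early embryo genes 1 was called higher and 8 lower in cbp-1 worms, 1 higher and 4 lower in the cco-1 mixture, and 4 higher and 2 lower in the mrps-5 mixture, with medians of -0.10, -0.06 and 0.00. Of 14 molting genes 8 were called higher and 2 lower in cbp-1 worms, 5 higher and 1 lower in the cco-1 mixture, and 3 higher and 4 lower in the mrps-5 mixture. Over all genes tested 58.7% were called in either direction in cbp-1 worms, 47.2% in the cco-1 mixture and 42.8% in the mrps-5 mixture. In cbp-1 worms the summed levels were 556.8 to 562.1 CPM for sperm genes, 9416 to 9828 CPM for oocyte genes and 483.2 to 500.5 CPM for molting genes, against 464.1 to 489.6, 11450 to 11800 and 421.3 to 441.6 CPM in ev worms. Sperm genes were also called lower in the mixtures with the atfs-1 clone. These were 19 of 32 with cco-1 and 21 of 32 with mrps-5, and 0 were higher. Over all genes tested 11.5% and 9.98% were called lower in those 2 comparisons. The part of developmental stage and of tissue makeup in the results on the 9 genes was not tested.

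**Figure D2:**
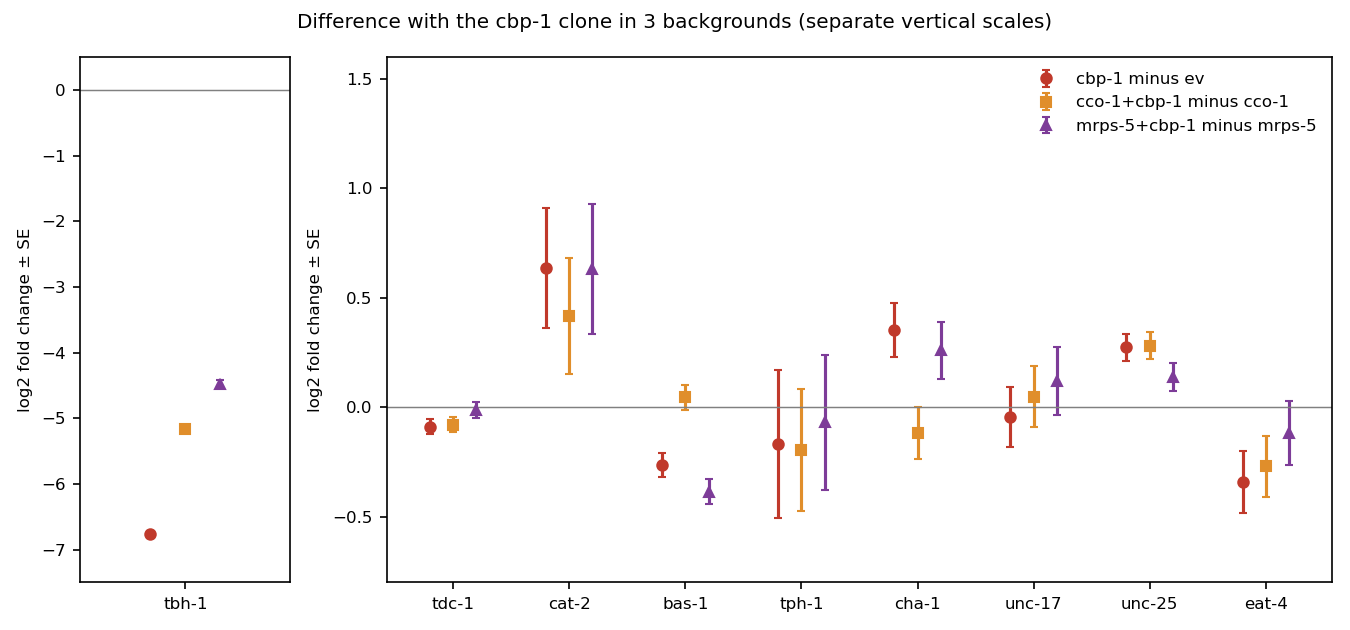
Log2 fold change with its standard error (vertical axes, on separate scales) of each gene on adding the cbp-1 clone, against ev (red circles), cco-1 (orange squares) and mrps-5 (purple triangles). tbh-1 falls by 6.77, 5.16 and 4.48, whereas the other 8 genes lie between -0.39 and 0.64.

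Of the 9 genes, 3 were higher and 4 lower in cbp-1 worms than in ev worms, in a comparison that called 58.7% of all genes tested. The cco-1 mixture had 1 higher and 1 lower than cco-1 worms, where 47.2% of all genes were called. The mrps-5 mixture had 0 higher and 2 lower than mrps-5 worms, where 42.8% were called. The median log2 change of the 9 genes was -0.09, -0.08 and -0.01 in these 3 comparisons, against 0.02, -0.02 and -0.01 over all genes tested. In the main fit the share of the 9 genes called was above the background in cbp-1 worms and below it in both mixtures. The excess in cbp-1 worms was not stable. Fits that left out 1 library called 3 to 6 of the 9 genes there, and DESeq2 also called fewer. The tests of whether the cbp-1 effect depends on the background called 3 of the 9 genes for cco-1 (tbh-1, bas-1 and cha-1), where 24.9% of all genes were called. They called 1 (tbh-1) for mrps-5, where 23.6% were called, and 2 (tbh-1 and bas-1) between the mixtures, where 5.49% were called.

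unc-25, the GABA-synthesis gene, was higher with the cbp-1 clone in cbp-1 worms and in the cco-1 mixture. It had 23.2, 23.8 and 22.3 CPM in cbp-1 worms, against 18.6, 19.5 and 19.3 CPM in ev worms, and rose by 0.27 ± 0.06 (adjusted p = 0.000188). The cco-1 mixture had 20.2, 22.6 and 23.7 CPM, against 17.3, 18.8 and 18.7 CPM in cco-1 worms, a rise of 0.28 ± 0.06 (adjusted p = 0.000181). Both groups with cbp-1 lay above their own controls without overlap. In the mrps-5 mixture the values were 20.1, 20.7 and 22.2 CPM, against 20.5, 18.3 and 18.1 CPM in mrps-5 worms, and the difference of 0.14 ± 0.06 did not pass the test (adjusted p = 0.0742). Without mrps-5 replicate 1, the highest library of its group, it was 0.20 and passed (adjusted p = 0.0198). The interaction tests did not call a difference in the cbp-1 effect on unc-25 between backgrounds (0.01 ± 0.09 for cco-1, adjusted p = 0.968, and -0.13 ± 0.09 for mrps-5, adjusted p = 0.294).

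bas-1, the decarboxylase gene shared by the dopamine and serotonin routes, fell by 0.27 ± 0.05 in cbp-1 worms (adjusted p = 5.28e-05), with 29.8, 31.995 and 29.6 CPM in cbp-1 worms against 33.6, 39.4 and 36.98 CPM in ev worms. In the mixture with mrps-5 it fell by 0.39 ± 0.06 (adjusted p = 2.34e-07), with 25.9, 27.04 and 28.1 CPM in the mixture against 36.5, 34.7 and 34.5 CPM in mrps-5 worms. With cco-1 there was no detectable difference (0.04 ± 0.06, adjusted p = 0.541), and the mixture had 26.0, 25.4 and 25.2 CPM against 23.8, 25.5 and 24.9 CPM in cco-1 worms. The cbp-1 effect on bas-1 differed between the mixtures by -0.43 ± 0.08 (mrps-5 minus cco-1, adjusted p = 0.000196).

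The dopamine gene cat-2 had 39, 33 and 35 counts in cbp-1 worms and 28, 13 and 20 counts in ev worms. It rose by 0.64 ± 0.28 (adjusted p = 0.0451), a call lost on leaving out ev replicate 2 or 3 or any of the cbp-1 libraries (adjusted p = 0.0658 to 0.197). The 9 libraries with the cbp-1 clone held 1.01 to 1.26 CPM of cat-2, within the range of 0.507 to 1.41 CPM in the other 18. cha-1 had 2.98, 3.80 and 2.99 CPM in cbp-1 worms against 2.35, 2.47 and 2.82 CPM in ev worms, a rise of 0.35 ± 0.12 (adjusted p = 0.0148). Without cbp-1 replicate 2 the change of cha-1 was 0.24 (adjusted p = 0.169), and without ev replicate 1 it was 0.29 (adjusted p = 0.0872). In the cco-1 mixture cha-1 had 2.73, 2.97 and 2.82 CPM against 2.77, 3.15 and 3.31 CPM in cco-1 worms, a difference of -0.12 ± 0.12 (adjusted p = 0.463). In the mrps-5 mixture it had 3.20, 3.09 and 2.94 CPM against 2.26, 2.90 and 2.63 CPM in mrps-5 worms, without overlap, and the difference of 0.26 ± 0.13 did not pass the test (adjusted p = 0.121).

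eat-4 had 2.43, 2.50 and 2.74 CPM in cbp-1 worms against 2.59, 3.54 and 3.62 CPM in ev worms, and fell by 0.34 ± 0.14 (adjusted p = 0.0376). The adjusted p of eat-4 rose to between 0.0877 and 0.188 without ev replicate 2, ev replicate 3, cbp-1 replicate 1 or cbp-1 replicate 2. unc-17 differed by -0.04 ± 0.14 (adjusted p = 0.796) and tph-1 by -0.17 ± 0.34 (adjusted p = 0.684) in cbp-1 worms. The unc-17 and cha-1 transcripts, which share a locus, thus gave separate values in this comparison, and a test of the difference between them was not made.

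The mitochondrial clones lowered tbh-1 without cbp-1 RNAi. cco-1 worms had 141.9 to 148 CPM and mrps-5 worms 110.2 to 115 CPM of tbh-1, against 248 to 256 CPM in ev worms, and the ranges did not overlap. The fall was 0.79 ± 0.04 in cco-1 worms (adjusted p = 6.52e-22) and 1.17 ± 0.04 in mrps-5 worms (adjusted p = 6.58e-27). With a library-set term these falls were 0.87 ± 0.05 (adjusted p = 1.01e-22) and 1.25 ± 0.05 (adjusted p = 2.09e-29). mrps-5 worms had less tbh-1 than cco-1 worms by 0.37 ± 0.04 (adjusted p = 5.91e-11), a comparison within 1 library set. Over the 9 groups the order of tbh-1 levels from low to high was cbp-1, cco-1+cbp-1, mrps-5+cbp-1, mrps-5, mrps-5+atfs-1, cco-1, cco-1+atfs-1, ev and atfs-1. The ranges of cco-1 and cco-1+atfs-1 overlapped, as did those of ev and atfs-1, and the other neighbours in the order did not.

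The sheath gene inx-8 was lower as well, by 0.53 ± 0.04 in cco-1 worms and by 0.94 ± 0.04 in mrps-5 worms against ev worms, and by 0.42 ± 0.04 in mrps-5 worms against cco-1 worms, all called. inx-9 was not called in these 3 comparisons (-0.02, 0.14 and 0.16). lim-7 was not called in cco-1 worms (-0.08) or against cco-1 worms (-0.24) and fell by 0.31 ± 0.11 in mrps-5 worms. ceh-18 rose with either clone against ev, by 0.25 ± 0.07 for cco-1 and by 0.22 ± 0.07 for mrps-5. With the library-set term only inx-8 of these 4 genes was called in either comparison with ev. tdc-1 differed from ev worms by 0.04 ± 0.03 with cco-1 and by 0.04 ± 0.04 with mrps-5 (adjusted p = 0.359 and 0.398). With the term these differences were -0.02 ± 0.05 for both clones (adjusted p = 0.845 and 0.863).

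bas-1 separated the mitochondrial clones. It had 23.8, 25.5 and 24.9 CPM in cco-1 worms, against 33.6, 39.4 and 36.98 CPM in ev worms, and fell by 0.56 ± 0.06 (adjusted p = 4.98e-11, and by 0.48 ± 0.09 with the library-set term, adjusted p = 3.55e-05). mrps-5 worms had 36.5, 34.7 and 34.5 CPM and differed from ev worms by -0.05 ± 0.05 (adjusted p = 0.463), and by 0.03 ± 0.09 with the library-set term (adjusted p = 0.889). Set directly against each other within 1 library set, mrps-5 worms had more bas-1 than cco-1 worms by 0.51 ± 0.06 (adjusted p = 2.23e-09).

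Of the 9 genes, 0 were higher and 2 lower in cco-1 worms than in ev worms, where 45.3% of all genes were called. 0 were higher and 2 lower in mrps-5 worms, where 37.9% were called, and 1 was higher and 1 lower in mrps-5 worms than in cco-1 worms, where 11.8% were called. The second gene called in mrps-5 worms was unc-17, with 2.37, 3.07 and 3.73 CPM in mrps-5 worms against 3.29, 4.40 and 4.19 CPM in ev worms. Its difference of -0.38 ± 0.15 (adjusted p = 0.0402) became 0.09 with the library-set term (adjusted p = 0.884). The call was also lost without ev replicate 2 or 3 or mrps-5 replicate 1 or 2 (adjusted p = 0.0765 to 0.336). cat-2, tph-1, cha-1, unc-25 and eat-4 were not called in either comparison with ev, with or without the library-set term.

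tbh-1 stayed high in the groups with the atfs-1 clone, none of which had a lower atfs-1 read count than its control. The libraries labelled atfs-1 had 255, 270 and 269 CPM of tbh-1, against 256, 253 and 248 CPM in ev worms, a difference of 0.07 ± 0.03 (adjusted p = 0.199) that crosses the library sets. With the library-set term the difference was 0.01 ± 0.04 (adjusted p = 0.995). Without atfs-1 replicate 1, the only library of its group in the same set as the ev libraries, the change of tbh-1 without the term was 0.09 and passed the test (adjusted p = 0.0148), in a comparison that then lies wholly between the sets and cannot be told apart from them. In the edgeR test 0 of the 9 genes were called in this comparison, with or without the term. Without it 0 had an unadjusted p below 0.05, and DESeq2 called 0, where edgeR called 10.8% of all genes.

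In the mixtures with atfs-1, tbh-1 had 153, 147 and 151.99 CPM with cco-1, against 147.5, 148 and 141.9 CPM in cco-1 worms (0.05 ± 0.04, adjusted p = 0.402). With mrps-5 it had 128, 121 and 130.5 CPM, against 110.2, 115 and 112 CPM in mrps-5 worms, a rise of 0.17 ± 0.04 (adjusted p = 0.00042) with no overlap. The difference between these 2 atfs-1 effects, 0.12 ± 0.05, did not pass the test (adjusted p = 0.274). Here 0 genes were higher and 1 lower of the 9 with cco-1, where 20.4% of all genes were called, and 1 was higher and 2 lower with mrps-5, where 16.8% were called.

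The largest difference made by the atfs-1 clone among the 9 genes was in bas-1. The cco-1 mixture with atfs-1 had 17.1, 16.1 and 17.8 CPM of bas-1, against 23.8, 25.5 and 24.9 CPM in cco-1 worms, and bas-1 fell by 0.54 ± 0.06 (adjusted p = 2.2e-09). These 3 libraries were the lowest of all 27 for bas-1. The mrps-5 mixture with atfs-1 had 30.6, 32.5 and 29.9 CPM, against 36.5, 34.7 and 34.5 CPM in mrps-5 worms, a fall of 0.18 ± 0.05 (adjusted p = 0.0139). That smaller call was lost without mrps-5 replicate 1, mrps-5+atfs-1 replicate 1 or mrps-5+atfs-1 replicate 3 (adjusted p = 0.0559 to 0.0907). The atfs-1 effect on bas-1 differed between the arms by 0.36 ± 0.08 (mrps-5 minus cco-1, adjusted p = 0.00471). bas-1 was the 1 gene of the 9 called in that test, where 3.49% of all genes were called.

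eat-4 had 2.25, 2.46 and 2.06 CPM in the mrps-5 mixture with atfs-1 against 3.33, 3.47 and 2.58 CPM in mrps-5 worms, and fell by 0.47 ± 0.15 (adjusted p = 0.0254). Its call was lost without mrps-5 replicate 1 or 2 or mixture replicate 1 or 3 (adjusted p = 0.0682 to 0.126). The range of the mixture lay below that of mrps-5 worms.

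**Figure D3:**
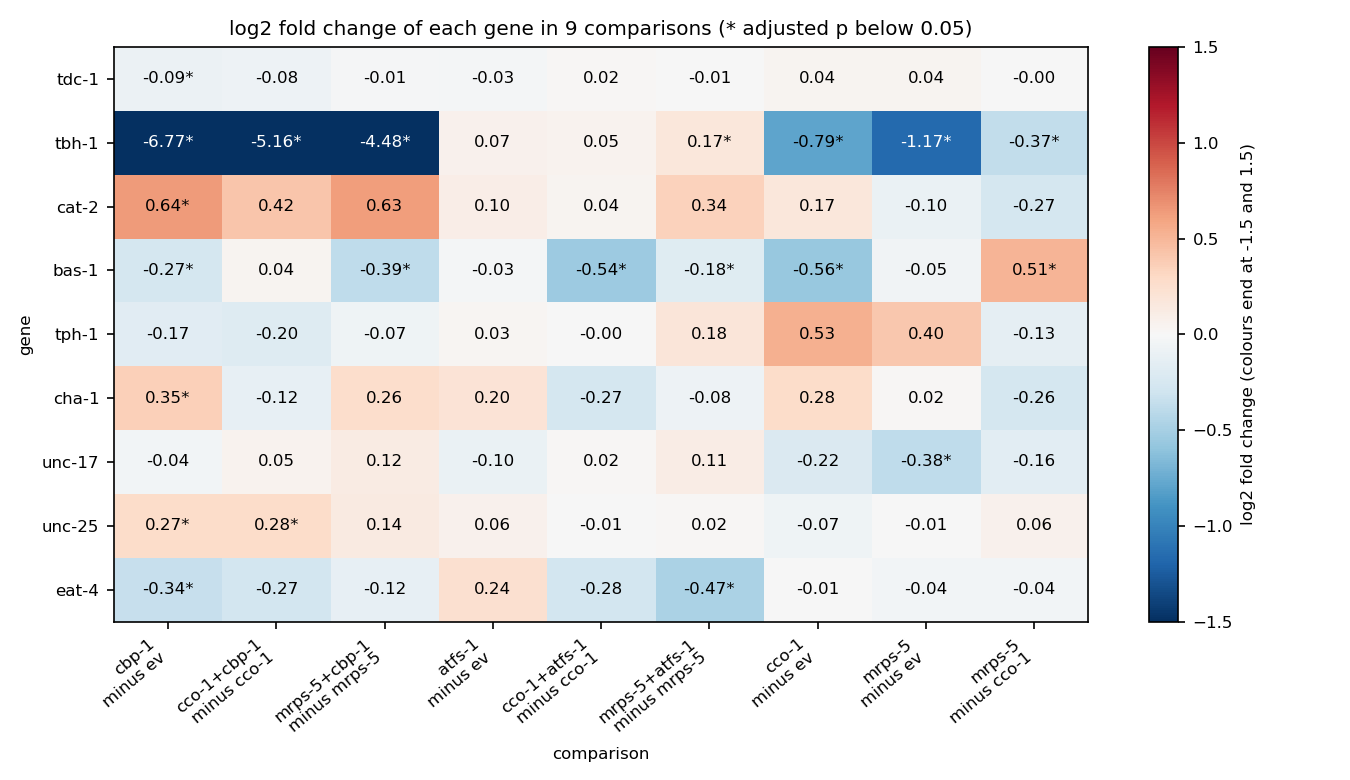
Log2 fold change of the 9 genes (rows) in 9 comparisons (columns), with colour from blue (lower in the first-named group) to red (higher) ending at -1.5 and 1.5, and an asterisk at an adjusted p below 0.05. tbh-1 falls in all 3 comparisons that add cbp-1 and in both mitochondrial groups against ev, bas-1 falls most in the cco-1 groups without cbp-1, and tdc-1 lies between -0.09 and 0.04 throughout.

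Among the 6 groups with a mitochondrial clone, which all lie in 1 library set, an F test over all 6 called tbh-1, bas-1, unc-25 and eat-4, or 4 of 9, where 64.2% of all genes tested were called. The adjusted p was 3.64e-47 for tbh-1, 2.02e-17 for bas-1, 0.000195 for unc-25 and 0.0302 for eat-4. The call of eat-4 was lost without cco-1 replicate 1 or 2, mrps-5 replicate 1 or 2, or mrps-5+atfs-1 replicate 1 or 3 (adjusted p = 0.0532 to 0.108). tdc-1 (adjusted p = 0.132), cha-1 (0.0679), cat-2 (0.231), unc-17 (0.802) and tph-1 (0.924) were not called.

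The order of bas-1 levels over the 9 groups began with cco-1+atfs-1 at 17.02 ± 0.87 CPM (SD, n = 3), apart from all other groups. cco-1 at 24.8 ± 0.88, cco-1+cbp-1 at 25.5 ± 0.42 and mrps-5+cbp-1 at 27.02 ± 1.1 CPM followed, each overlapping the next. cbp-1 at 30.5 ± 1.3 and mrps-5+atfs-1 at 31.01 ± 1.3 CPM overlapped each other, and mrps-5 at 35.2 ± 1.1, atfs-1 at 35.9 ± 1.6 and ev at 36.7 ± 2.9 CPM formed the overlapping top. For unc-25 each group overlapped the next, between 18.1 ± 0.90 CPM in cco-1+atfs-1 worms and 23.1 ± 0.77 CPM in cbp-1 worms. Neighbouring groups also overlapped throughout the order for tdc-1, cat-2, cha-1, unc-17 and eat-4, and for tph-1 between all neighbours but atfs-1 and cco-1+cbp-1.

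Over the 18 libraries with a mitochondrial clone, the genes whose log2 CPM tracked tbh-1 most closely were hpo-34 and T20D3.2, each with Pearson's r of 0.998. These libraries share the feeding groups, and the 6 with the cbp-1 clone lie far below the others, which sets this value. hpo-34 differed by -1.77 and -1.71 and T20D3.2 by -2.12 and -1.98 on adding cbp-1 to cco-1 and to mrps-5, much less than tbh-1. For bas-1 the closest were W03D8.8 (r = 0.939) and srh-237 (r = 0.937), with mean levels of 2.17 and 1.14 CPM, and for unc-25 they were ttr-26 and lntl-1 (both r = 0.886).

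Genes that supply cofactors to these enzymes, fill vesicles or take transmitter up again were counted next. Of 16 such genes, 4 were higher and 5 lower in cbp-1 worms than in ev worms, 2 higher and 6 lower in the cco-1 mixture with cbp-1, and 2 higher and 6 lower in the mrps-5 mixture with cbp-1. The shares of all tested genes called higher and lower were 30.2% and 28.5%, 21.9% and 25.3%, and 19.4% and 23.4% in these comparisons. The list's median log2 changes were 0.14, -0.10 and -0.09. The called falls included qdpr-1, which encodes dihydropteridine reductase, the enzyme that regenerates the tetrahydrobiopterin cofactor of the aromatic amino acid hydroxylases. It fell by 1.01 ± 0.04 in cbp-1 worms, 0.98 ± 0.04 in the cco-1 mixture and 0.97 ± 0.04 in the mrps-5 mixture. The phenylalanine hydroxylase gene pah-1, which uses the same cofactor, fell by 0.64 ± 0.04, 0.64 ± 0.04 and 0.62 ± 0.04. vglu-2, a relative of eat-4, rose by 0.59 ± 0.06 in cbp-1 worms but fell by 0.82 ± 0.06 and 0.99 ± 0.06 in the cco-1 and mrps-5 mixtures.

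The 2 genes of tetrahydrobiopterin synthesis in this list moved with the choice of mitochondrial clone and with the cbp-1 clone. cat-4 encodes GTP cyclohydrolase and ptps-1 the next enzyme of the route. cat-4 averaged 19.4 CPM with cco-1 and 40.8 CPM with mrps-5, against 44.98 CPM in ev worms, and ptps-1 averaged 4.21 and 8.18 CPM, against 9.39 CPM. In cco-1 worms cat-4 fell by 1.21 ± 0.06 against ev (1.45 with the library-set term, adjusted p = 3.15e-23) and ptps-1 by 1.15 ± 0.12 (0.83 with the term, adjusted p = 0.00022). mrps-5 worms had more cat-4 than cco-1 worms by 1.07 ± 0.06 (adjusted p = 8.43e-18) and more ptps-1 by 0.95 ± 0.12 (adjusted p = 4.99e-08). This is the same direction as bas-1 in these 2 comparisons. Adding the atfs-1 clone lowered cat-4 by 0.39 ± 0.07 with cco-1 (adjusted p = 1.28e-05) and raised it by 0.26 ± 0.05 with mrps-5 (adjusted p = 0.000438), whereas bas-1 fell in both. On adding the cbp-1 clone ptps-1 fell to 3.71 CPM in cbp-1 worms, against 9.39 CPM in ev worms (by 1.34 ± 0.12, adjusted p = 5.53e-13). It fell to 2.83 CPM in the cco-1 mixture, against 4.21 CPM in cco-1 worms (by 0.57 ± 0.14), and to 3.36 CPM in the mrps-5 mixture, against 8.18 CPM in mrps-5 worms (by 1.29 ± 0.13). cat-4 fell by 0.28 ± 0.05 in cbp-1 worms and by 0.16 ± 0.06 in the mrps-5 mixture, and differed by -0.12 ± 0.06 in the cco-1 mixture (adjusted p = 0.119).

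Of 21 genes for clearance and breakdown, 3 were higher and 8 lower in cbp-1 worms, 5 higher and 6 lower in the cco-1 mixture and 3 higher and 7 lower in the mrps-5 mixture, with medians of -0.08, 0.03 and -0.09. Over all genes tested 58.7%, 47.2% and 42.8% were called in these comparisons. The catechol-O-methyltransferase family gene comt-4 rose by 5.65 ± 0.10 in cbp-1 worms, with means of 61.6 CPM in cbp-1 worms and 1.23 CPM in ev worms. It rose by 7.24 ± 0.12 in the cco-1 mixture (65.2 CPM, against 0.428 CPM in cco-1 worms) and by 6.09 ± 0.11 in the mrps-5 mixture (66.4 CPM, against 0.976 CPM in mrps-5 worms). Its relative comt-5 rose by 3.26 ± 0.11, 2.17 ± 0.13 and 1.22 ± 0.13. How reads were split between members of this family is not stated in the labels. The glutamate transporter gene glt-1 fell by 1.17 ± 0.03, 0.86 ± 0.03 and 0.98 ± 0.03.

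**Figure D4:**
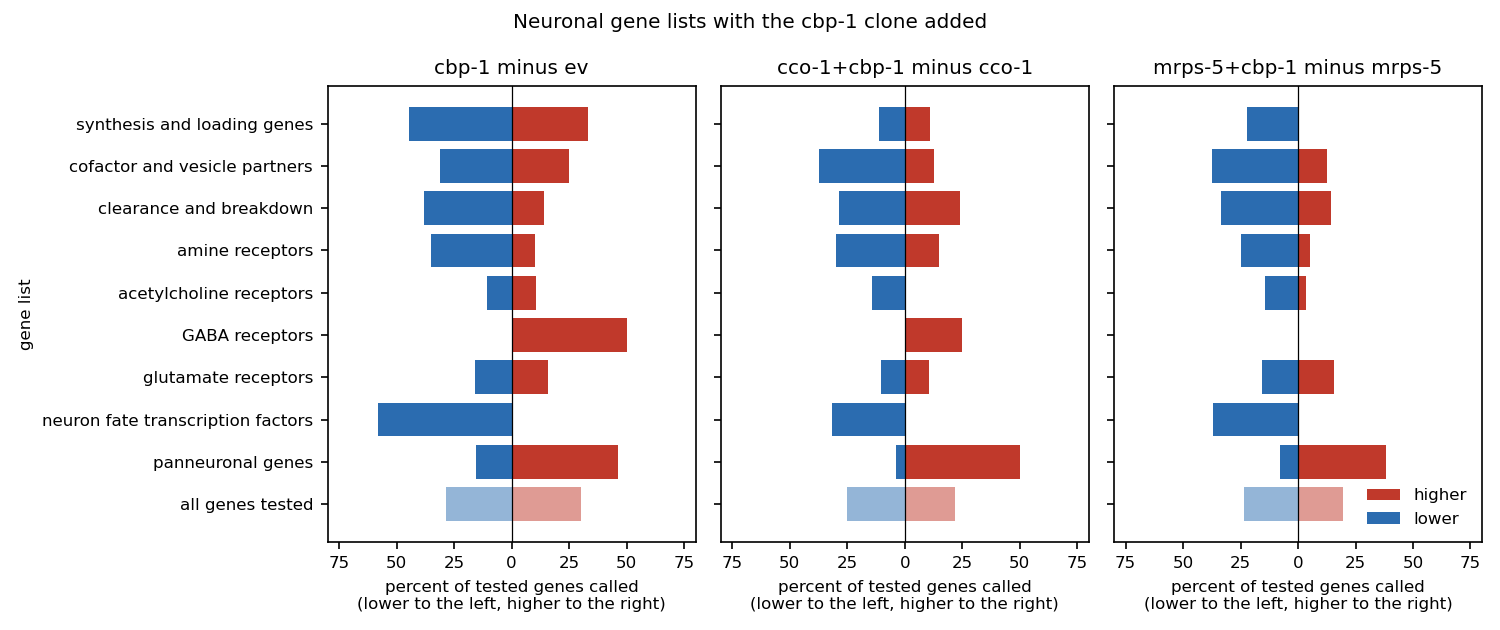
Percent of the tested genes of each list called higher (red, to the right) and lower (blue, to the left) on adding the cbp-1 clone, in panels against ev, cco-1 and mrps-5, with all genes tested in paler bars at the bottom. Neuron fate transcription factors have calls on the lower side only, and panneuronal genes more calls on the higher side in each panel.

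Receptors for the same transmitters had calls in both directions. Of all genes tested, 30.2% were called higher and 28.5% lower in cbp-1 worms. These shares were 21.9% and 25.3% in the cco-1 mixture, and 19.4% and 23.4% in the mrps-5 mixture. Of 20 amine receptor genes, 2 were higher and 7 lower in cbp-1 worms, 3 higher and 6 lower in the cco-1 mixture and 1 higher and 5 lower in the mrps-5 mixture. The octopamine receptor gene ser-3 fell by 0.53 ± 0.11, 0.44 ± 0.11 and 0.65 ± 0.12 in these comparisons. octr-1, another octopamine receptor gene, fell by 0.71 ± 0.18 in the cco-1 mixture and by 1.18 ± 0.20 in the mrps-5 mixture. Its mean was also lower in cbp-1 worms, at 0.897 CPM against 1.53 CPM in ev worms. The serotonin receptor gene ser-7 fell by 1.54 ± 0.16, 1.11 ± 0.16 and 0.92 ± 0.19. The tyramine receptor gene tyra-2 rose by 0.90 ± 0.19 in cbp-1 worms and by 1.11 ± 0.22 in the mrps-5 mixture. Its mean was also higher in the cco-1 mixture, at 1.67 CPM against 0.945 CPM in cco-1 worms.

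Of 28 acetylcholine receptor genes, 3 were higher and 3 lower in cbp-1 worms, and 4 were lower in each mixture, with 0 higher in the cco-1 mixture and 1 in the mrps-5 mixture. acr-12, a nicotinic receptor subunit gene, rose against ev by 2.19 ± 0.12 with cco-1 and by 1.91 ± 0.13 with mrps-5 (2.27 and 2.00 with the library-set term). On adding cbp-1 it fell by 1.48 ± 0.10 and 1.87 ± 0.13. The atfs-1 mixtures had lower acr-12 levels as well. Means were 9.40 CPM in cco-1 worms, 3.38 CPM in the cco-1 mixture with cbp-1 and 3.29 CPM in that with atfs-1. For mrps-5 the means were 7.76, 2.11 and 2.97 CPM in the same order. Of 19 glutamate receptor genes, 3 were higher and 3 lower in cbp-1 worms, 2 and 2 in the cco-1 mixture and 3 and 3 in the mrps-5 mixture. The acetylcholine and glutamate receptor lists both lay below the shares called over all genes tested. Those were 58.7% in cbp-1 worms, 47.2% in the cco-1 mixture and 42.8% in the mrps-5 mixture. The glutamate-gated chloride channel gene glc-1 fell by 2.62 ± 0.11, 1.97 ± 0.10 and 2.28 ± 0.11.

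Of 8 GABA receptor genes tested, 4 were higher and 0 lower in cbp-1 worms, namely gbb-2 (0.22 ± 0.07), lgc-35 (0.65 ± 0.23), lgc-37 (0.80 ± 0.31) and lgc-38 (0.52 ± 0.22). 2 were higher in the cco-1 mixture, gbb-2 (0.19 ± 0.07) and lgc-38 (0.55 ± 0.21). In the mrps-5 mixture 0 of the 8 were called. The list medians were 0.24 in cbp-1 worms, 0.10 in the cco-1 mixture and -0.03 in the mrps-5 mixture. Over all genes tested 30.2% were called higher in cbp-1 worms and 21.9% in the cco-1 mixture, and with 8 genes the count in the cco-1 mixture is near that share.

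Transcription factors that fix neuron type had calls on the lower side only with cbp-1: 11 of 19 in cbp-1 worms, 6 in the cco-1 mixture and 7 in the mrps-5 mixture. Over all genes tested 28.5%, 25.3% and 23.4% were called lower, and with 19 genes the count in the cco-1 mixture is near that share. Their median log2 changes were -0.54, -0.16 and -0.37. The LIM homeodomain gene lim-6, known for a role in some GABA neurons, fell by 1.94 ± 0.18, 1.56 ± 0.16 and 1.27 ± 0.18. egl-46 fell by 2.22 ± 0.18, 1.04 ± 0.16 and 0.92 ± 0.18, and the homeodomain genes ceh-14 and ceh-36 fell in all 3 comparisons as well.

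Genes used across all neurons had calls in both directions. Of 26, 12 were higher and 4 lower in cbp-1 worms, 13 higher and 1 lower in the cco-1 mixture, and 10 higher and 2 lower in the mrps-5 mixture, with medians of 0.16, 0.14 and 0.10. Over all genes tested 30.2%, 21.9% and 19.4% were called higher, and 28.5%, 25.3% and 23.4% lower. The carboxypeptidase gene egl-21, which processes neuropeptides, rose by 0.50 ± 0.04, 0.39 ± 0.05 and 0.29 ± 0.05. The summed level of the 26 genes was 1122 to 1124 CPM in cbp-1 worms against 963 to 969.5 CPM in ev worms, 1128 to 1144 CPM in the cco-1 mixture against 1004 to 1019 CPM in cco-1 worms, and 1061 to 1105 CPM in the mrps-5 mixture against 990 to 1012 CPM in mrps-5 worms. None of the 26 was at 0 in any group. Those called lower were unc-2, syd-2, unc-10 and unc-33 in cbp-1 worms (by 0.11 to 0.22), unc-10 in the cco-1 mixture (by 0.22), and unc-10 and unc-2 in the mrps-5 mixture (by 0.31 and 0.24), and the other 10, 12 and 14 genes were not called. The part of neuron number or neuron state in the tbh-1 result was not tested.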

How the data were processed

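Poly(A) RNA of whole worms was sequenced in 27 libraries, 3 for each of 9 feeding groups taken from the sample titles. The submitters' processing notes name STAR 2.6.0a, HTSeq 0.10.0 and the build WBcel235, and the deposited values are raw counts per gene. Read trimming, strand setting and annotation release were not given in the sources used here. Summary lines of the counting, which name no gene, made up 8.71% to 17.0% of a library and entered neither the library sizes nor the tests.

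All 27 libraries were fitted in R 4.3.3 with edgeR 4.0.16 (TMM factors, filterByExpr with a minimum count of 10, robust quasi-likelihood F test, 1 coefficient per group). Calls were made below an adjusted p of 0.05 (Benjamini-Hochberg over the 16435 genes of each comparison). CPM are counts over TMM-scaled library sizes, and CPM per kilobase divides by merged exon length. Standard errors were taken from the log2 fold change and its F statistic. The common biological coefficient of variation was 4.18%. Genes on the library-set axis had a mean of at least 5 CPM and differed by over 0.5 on the log2 scale between atfs-1 replicate 1 and the mean of the other 2. Every pair of replicates differed beyond counting noise: chi-square over its degrees of freedom was 1.49 to 6.97 in the other 8 groups and reached 32.9 among the atfs-1 libraries.

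The 9 genes and the other lists were chosen with earlier results of these data known, and the lists come from general knowledge of worm genes. All 9 genes are named in every comparison, with up to 4 genes of each other list by smallest adjusted p and the 2 genes most alike each of tbh-1, bas-1 and unc-25. All 4 sheath genes and the paralogs among them were named for every comparison described, which goes beyond that rule. The panneuronal genes called lower, the cbp-1 values of cat-4 and ptps-1, and the atfs-1 values of acr-12 and of the sperm genes were chosen after their values were seen. So were the mean CPM of cpr-1, octr-1 and tyra-2. Alternatives were RLE and upper-quartile scaling, no filter, a filter of 1 CPM in 3 libraries, a replicate block, a library-set term, only the groups compared, leaving out each library, and DESeq2 1.42.0. The steps were tested on simulated data.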

Additional observations from a re-analysis of the deposited data

Results flagged for a closer look

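Several differences between groups were themselves tested and called by edgeR's quasi-likelihood test with Benjamini-Hochberg adjustment over 16435 genes (n = 3 per group). The change of tbh-1 made by the cbp-1 clone differed between backgrounds, by 1.61 ± 0.10 on the log2 scale with cco-1 minus without it (adjusted p = 1.59e-16) and by 2.29 ± 0.10 with mrps-5 minus without it (adjusted p = 3.05e-21). Between the mixtures with mrps-5 and with cco-1 it differed by 0.69 ± 0.09 (adjusted p = 3.6e-07).

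The change of bas-1 made by the cbp-1 clone differed by 0.31 ± 0.08 with cco-1 minus without it (adjusted p = 0.00233), and by -0.43 ± 0.08 between the mixtures with mrps-5 and with cco-1 (adjusted p = 0.000196). The change of bas-1 made by the atfs-1 clone differed by 0.36 ± 0.08 between the mixtures with mrps-5 and with cco-1 (adjusted p = 0.00471).

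The change of cha-1 made by the cbp-1 clone differed by -0.47 ± 0.17 with cco-1 minus without it (adjusted p = 0.0426), a call that was lost in 7 of 12 fits that left out 1 library: ev replicate 1 or 2, cbp-1 replicate 2, cco-1 replicate 2 or 3, or cco-1+cbp-1 replicate 1 or 3 (adjusted p = 0.0615 to 0.197). Comparisons with and without a mitochondrial clone also differ in how the cbp-1 clone was diluted, which the labels do not give for cbp-1 alone.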

How the results depend on the processing

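Of 32 called results on the 9 genes, tried under 8 other settings each, 241 of 256 values kept their direction and call, 14 kept the direction only and 1 turned. The one that turned was unc-17 in mrps-5 worms against ev, at 0.094 with the library-set term. Every call of tbh-1 stayed under all 8 settings and with any library left out, as did those of unc-25 and all calls of bas-1 but that in the mrps-5 mixture with atfs-1. DESeq2 called 4 of the 9 genes in cbp-1 worms against ev (main count 7), 1 in mrps-5 worms (main count 2). With the library-set term 1 was called in mrps-5 worms, and over all genes the calls against ev fell to 54 in libraries labelled atfs-1 (main 1772), 2691 in cco-1 worms (main 7449) and 1602 in mrps-5 worms (main 6225). A fit of only the groups compared called 28 genes for atfs-1, and 2 of the 9 for the cbp-1 effect with mrps-5 minus without. The cause of these shifts was not tested. Leaving out 1 library moved the counts among the 9 genes to between 3 and 6 in cbp-1 worms, 0 and 1 for atfs-1, 1 and 2 for mrps-5, 2 and 4 in the cco-1 mixture with cbp-1 (4 without cco-1 replicate 3) and 1 and 3 in the mrps-5 mixture with atfs-1, and the count over all genes for atfs-1 to between 155 (without atfs-1 replicate 2) and 4874 (without atfs-1 replicate 1). Same-numbered libraries showed little shared variation (correlations of deviations between -0.078 and 0.025). With 3 libraries per group, this cannot settle whether the numbers mark samples handled together. With the replicate block 6 of the 9 genes were called in cbp-1 worms, cat-2 at an adjusted p of 0.0532, and tbh-1 fell by 6.77. Depth limits tph-1 and cat-2 most, at 7 to 22 and 12 to 42 counts per library.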
